A study of Mus musculus with 6 samples.

Results

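Levels of YAP, its paralogue TAZ, the 4 TEAD transcription factors and 4 of the genes they are best known to activate were compared between 2 mouse cell lines by RNA-seq. The 10 genes were chosen by name in the deposited count table, which lists 23284 genes, and all 10 were found there as Yap1, Wwtr1 (TAZ), Tead1, Tead2, Tead3, Tead4, Ctgf, Cyr61, Ankrd1 and Amotl2. All 10 passed the filter on low counts, as did 12965 genes in all. The first line, MV+, grew out of lens epithelia of a wild-type C57BL6 mouse and is called Pax6-ON in the study, which set out to compare the folding of the Pax6 locus. The second, RAG, came from a renal adenocarcinoma of a BALB/c mouse and is called Pax6-OFF. Neither line was treated, and 3 flasks of each, grown in the same medium with fetal calf serum to below full confluence, gave 3 libraries per line. Strain, tissue of origin and transformation history differ together between the lines and cannot be told apart, and each line is 1 model of its tissue.

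YAP and TAZ are transcriptional coactivators that do not bind DNA themselves and reach their target genes through TEAD factors. In the Hippo pathway the kinases MST1 and MST2, with their scaffold SAV1, activate the kinases LATS1 and LATS2, with MOB1, and these phosphorylate YAP and TAZ, which then stay in the cytoplasm or are degraded. Cell contact, serum and tension on the actin cytoskeleton act on this step, so much of the control is on protein location, which RNA levels do not report. In the mouse lens Yap1 maintains the epithelial progenitors, and in the kidney YAP and TAZ act in nephron formation and tubule growth.

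The libraries held between 17413045 and 22428230 counts in MV+ and between 28252165 and 43168532 in RAG. Pax6, the gene that names the lines, was at 57.3 CPM in MV+ and 0.0310 CPM in RAG, where CPM is the count scaled to a common library size by the TMM method. The lens label of MV+ was met in part. Of 10 lens markers 5 were tested, of which 4 passed as higher and 1 as lower in MV+. Pax6, Six3 and Sox2 were present, but Foxe3 and Crygs had no count and Pitx3 and Cdh1 had 2 and 4 counts over its 3 libraries. Of 9 mesenchymal markers 7 were tested and all 7 were higher in MV+. The 9 summed to 2231 to 2957 CPM in MV+, with means of 1278 CPM for Col1a1 and 863 CPM for Fn1. In RAG they summed to 0.325 to 0.767 CPM, and Col3a1, Prrx1 and Twist1 had no count. The untested Thy1 and Postn had 1 and 22 counts over the 3 MV+ libraries. Of 9 kidney epithelial markers 6 were tested and all 6 were lower in MV+. The 9 summed to 0.222 to 0.448 CPM in MV+ and to 719.7 to 786 CPM in RAG, where Krt18 alone had a mean of 490 CPM. In RAG Epcam had no count, and Cldn4 and Cdh1 had 2 and 8 counts over the 3 libraries. Leukocyte markers summed to 1.84 to 2.12 CPM in MV+ and 91.5 to 106 CPM in RAG, with Cd3e at 0 in both, and endothelial markers to at most 1.42 CPM anywhere. The part of these differences in cell character in the results below was not tested. The lines differed at most genes: 79.3% of the genes tested passed the quasi-likelihood test of edgeR at an adjusted p (Benjamini-Hochberg) under 0.05. With 40.4% higher and 38.9% lower in MV+, a passing test alone sets no gene apart. Nor does a lack of overlap between the libraries of the lines, whose share over all genes was not computed. Stk3 and Nuak2, from the gene lists below, did not overlap yet were not called (edgeR adjusted p = 0.296 and 0.142).

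All 10 genes were expressed in both lines, 7 were higher in MV+ and 3 were lower. The largest differences were in the targets, and these did not go one way: Ctgf was 54.2-fold higher in MV+ and Cyr61 between 21.5 and 26.7-fold over the same-numbered pairs of libraries, whereas Ankrd1 was 3.17-fold higher in RAG. The coactivators and TEAD genes differed by at most about a factor of 2, with Yap1, Tead1, Tead2 and Tead3 higher in MV+ and Wwtr1 higher in RAG. The median log2 fold change of the 10 genes, MV+ minus RAG, was 0.79, against 0.03 over all genes tested. By absolute log2 fold change, Ctgf stood at percentile 91.2 of all genes tested, Cyr61 at 89.1 and Ankrd1 at 77.3, and the other 7 between 27.4 and 65.0.

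**Figure D1:**
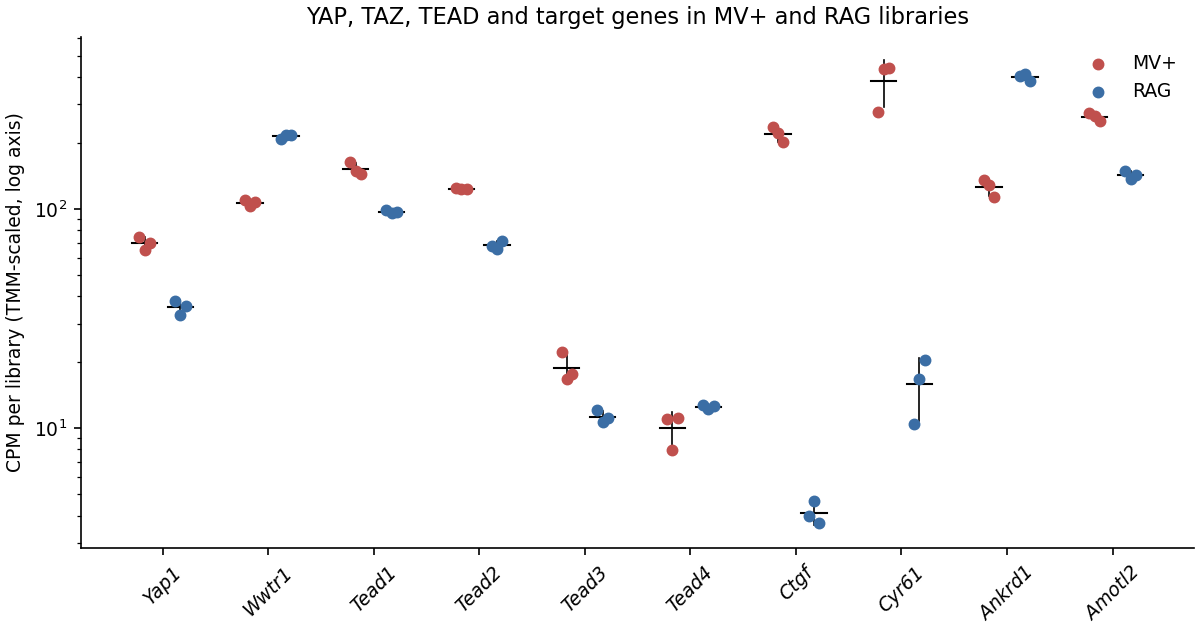
CPM of each of the 10 genes (horizontal axis) in each library (points, log vertical axis) of MV+ and RAG, with the mean (bar) and SD (line) of the 3 libraries. Ctgf and Cyr61 stand far apart between the lines with MV+ above, Ankrd1 and Wwtr1 stand apart with RAG above, and the points of Tead4 lie closest together, between 7.95 and 12.8 CPM.

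The 2 coactivators differed in opposite directions. Yap1 (chromosome 9, 7932001 to 8004596, minus strand, in mm9 as are all gene positions here) has 9 exons that sum to 4169 bases. Its levels were 74.8, 64.6 and 69.5 CPM in the MV+ libraries and 38.0, 33.0 and 36.2 CPM in the RAG libraries. Every MV+ library was above every RAG library, by 0.96 ± 0.08 on the log2 scale (SE of the edgeR fit, adjusted p = 2.08e-08). Wwtr1, the gene of TAZ (chromosome 3, 57259566 to 57379832, minus strand), has 7 exons of 4784 bases in all. Its levels were 110.2, 103 and 107 CPM in MV+ and 209, 218 and 217 CPM in RAG. Here every RAG library was above every MV+ library, and the log2 fold change was -1.01 ± 0.06 (adjusted p = 7.48e-10). Within each pair of libraries that share a replicate number Yap1 was 1.92 to 1.97-fold higher and Wwtr1 1.90 to 2.12-fold lower in MV+.

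The balance between the coactivators therefore differed more than either gene. Compared per exon length, as FPKM, the ratio of Wwtr1 to Yap1 was 1.28, 1.38 and 1.35 in the MV+ libraries and 4.80, 5.76 and 5.23 in the RAG libraries. Per exon length Wwtr1 exceeded Yap1 in all 6 libraries, by 1.34 ± 0.05-fold in MV+ and by 5.26 ± 0.48-fold in RAG (SD, n = 3), a difference of -1.97 on the log2 scale. These ratios assume that the summed exon lengths fit the isoforms made in each line, which the SD does not cover. The groups did not overlap, and the two-sided exact permutation test gave p = 0.1, the smallest that 3 libraries against 3 allow (adjusted p = 0.14 over 7 comparisons of this kind). The sum of the 2 genes, as TMM-scaled FPKM, differed less, at 39.0 ± 2.01 in MV+ and 53.5 ± 0.61 in RAG (exact permutation p = 0.1, adjusted p = 0.14).

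Of the 4 TEAD genes, whose proteins share a DNA-binding domain and carry YAP and TAZ to the genome, 3 were higher in MV+. Tead1 (chromosome 7, 119822834 to 120050319, plus strand, 14 exons) was at 164, 149 and 145 CPM in MV+ and at 98.7, 95.5 and 96.5 CPM in RAG. Tead2, which is known for its expression in early embryos and neural progenitors (chromosome 7, 52471123 to 52488989, plus strand, 12 exons), was at 124, 123 and 123 CPM in MV+ and at 67.7, 65.8 and 71.4 CPM in RAG. Tead3 (chromosome 17, 28468618 to 28487750, minus strand, 15 exons) was at 22.4, 16.7 and 17.6 CPM in MV+ and at 12.1, 10.7 and 11.2 CPM in RAG. For each of these genes the 2 lines did not overlap, and the log2 fold changes were 0.65 ± 0.07 for Tead1, 0.85 ± 0.06 for Tead2 and 0.74 ± 0.11 for Tead3 (edgeR adjusted p = 2.54e-07, 6.53e-09 and 2.42e-05).

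Tead4, known for its role in the trophectoderm of the early embryo, was the lowest of the family in MV+ and differed least between the lines. Its 12 exons lie between positions 128177161 and 128250831 of chromosome 6, minus strand. Its levels were 11.1, 7.95 and 11.2 CPM in MV+, from 167 to 274 counts a library, and 12.8, 12.2 and 12.7 CPM in RAG. The ranges did not overlap, but MV+ replicate 2 was well below the other MV+ libraries. The log2 fold change was -0.32 ± 0.12 (95% interval from -0.58 to -0.06, adjusted p = 0.0267). This call was lost by DESeq2 (-0.32, adjusted p = 0.0502), with upper quartile scaling (-0.24, adjusted p = 0.0906), by limma on FPKM (-0.12 to -0.15, adjusted p between 0.343 and 0.409) and without MV+ replicate 2 (-0.18, adjusted p = 0.164), as well as without RAG replicate 1 (adjusted p = 0.0579) and RAG replicate 3 (adjusted p = 0.0595).

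Per exon length Tead2 was the main TEAD transcript of both lines. This order rests on the summed exon lengths, 2115 bases for Tead2 and 9962 for Tead1. In counts Tead1 was above Tead2 in every library, with mean CPM of 153 against 123 in MV+ and 96.9 against 68.3 in RAG. Tead2 made up 68.1, 71.6 and 70.8% of the summed TEAD FPKM in the MV+ libraries and 63.9, 64.5 and 65.8% in the RAG libraries. Tead1 came next, at 19.1, 18.4 and 17.7% in MV+ and 19.8, 19.9 and 18.9% in RAG, with overlapping libraries but a lower share in MV+ in each of the 3 same-numbered pairs. Tead3 took 7.54% ± 0.97 and 7.55% ± 0.41. Tead4 took 3.92% ± 0.66 in MV+ and 8.18% ± 0.14 in RAG. The shares of Tead2 and Tead4 did not overlap between the lines (exact permutation p = 0.1 for each, adjusted p = 0.14), while the exact p was 0.2 for Tead1 and 1 for Tead3 (adjusted p = 0.233 and 1). These tests do not use the pairing of the libraries. The 4 genes together stood at 83.2 ± 2.54 TMM-scaled FPKM in MV+ and 49.9 ± 1.55 in RAG, a log2 difference of 0.74 (exact permutation p = 0.1, adjusted p = 0.14). These shares assume that the summed exon length fits the isoforms made in each line, and reads that match several TEAD genes equally were not counted.

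**Figure D2:**
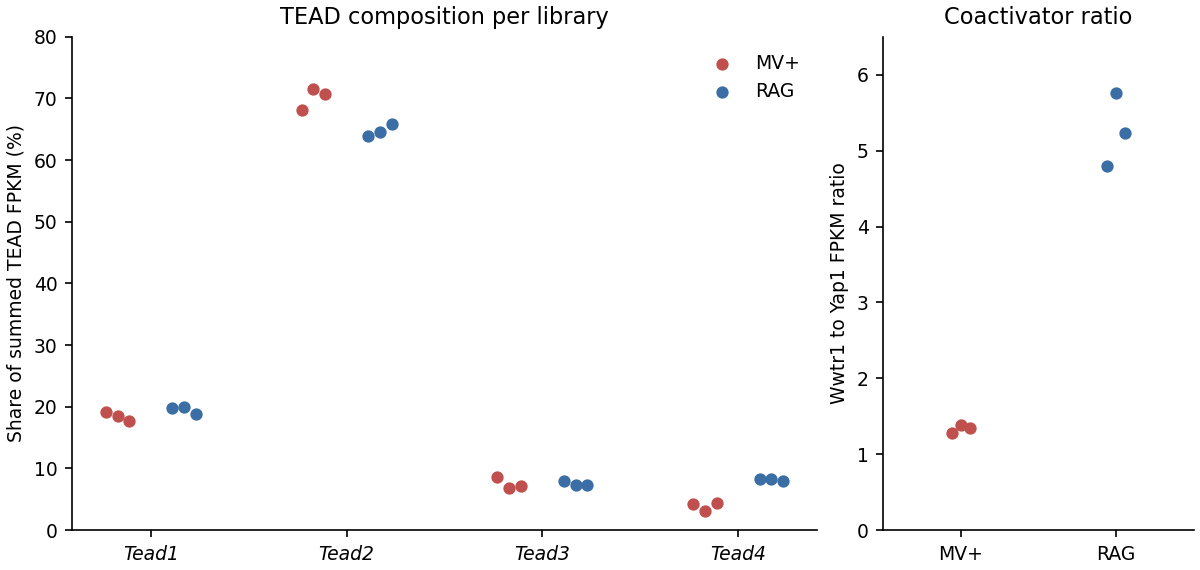
Left, the share of each TEAD gene in the summed TEAD FPKM of each library (points, percent). Right, the ratio of Wwtr1 to Yap1 FPKM in each library. Tead2 takes from 63.9 to 71.6% everywhere, Tead4 takes from 3.17 to 4.41% in MV+ and from 8.02 to 8.28% in RAG, and the coactivator ratio is near 1.34 in MV+ and 5.26 in RAG.

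The targets are shown with the DNA just before their start sites, because TEAD factors bind the letters GGAATG, which read CATTCC on the other strand, and the targets differed in opposite directions. RefSeq promoter entries (GRCm38.p6) were at hand for 7 of the 10 genes, with none for Tead1, Tead4 and Ctgf, and the 250 bases before each start were searched on both strands. Matches are in capitals, and each sequence runs 5′ to 3′ along the strand of its gene.
Cyr61 (chr3:145649986-145650235, minus strand): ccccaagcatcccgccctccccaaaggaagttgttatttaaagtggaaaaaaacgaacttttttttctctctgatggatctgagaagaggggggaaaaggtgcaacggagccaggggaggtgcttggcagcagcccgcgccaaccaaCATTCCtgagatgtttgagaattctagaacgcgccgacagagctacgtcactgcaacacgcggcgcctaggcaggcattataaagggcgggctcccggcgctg
Ankrd1 (chr19:36119845-36120094, minus strand): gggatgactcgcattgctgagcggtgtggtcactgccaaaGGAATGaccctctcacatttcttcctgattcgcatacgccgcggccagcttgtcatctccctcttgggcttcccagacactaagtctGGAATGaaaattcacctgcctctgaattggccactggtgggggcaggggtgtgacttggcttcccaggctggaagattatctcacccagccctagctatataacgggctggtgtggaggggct
Amotl2 (chr9:102717554-102717803, plus strand): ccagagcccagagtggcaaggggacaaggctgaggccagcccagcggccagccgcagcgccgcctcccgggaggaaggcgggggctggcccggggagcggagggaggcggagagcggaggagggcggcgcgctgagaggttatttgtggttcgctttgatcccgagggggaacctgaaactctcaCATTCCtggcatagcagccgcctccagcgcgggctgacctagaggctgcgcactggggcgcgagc
The match in Cyr61 begins 103 bases before the start and that in Amotl2 65 bases before it, both on the other strand, and Ankrd1 has matches that begin 210 and 123 bases before its start.

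In all, 6 of the 7 genes with an entry had a match in at least 1 of their windows, including Yap1 (141 bases before the start), Wwtr1 and Tead3, and Tead2 had none. A match was found in 12.6% of the 32851 windows of all genes, as did 14.4% of genes in any of their windows, and 1.02% of windows held 2 or more, as did the window of Ankrd1 and 1 of those of Tead3. Wwtr1 has 2 overlapping windows and Tead3 has 3, so their chances of a match were higher. The AP-1 motif TGANTCA, which is the same on both strands and shares no overlap with the first, was searched in the same way and had no match in these windows, against 6.75% of all windows. A match of 6 letters is a description of the sequence and says nothing of binding in these cells. A match stands before Cyr61, which was higher in MV+, and before Ankrd1, which was higher in RAG.

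Ctgf (also Ccn2) encodes a secreted matrix-associated protein of the CCN family and is among the most used readouts of YAP. Its 5 exons lie between positions 24315248 and 24318488 of chromosome 10, plus strand. It had 4265, 4674 and 4959 counts in the MV+ libraries and 121, 121 and 159 in the deeper RAG libraries. On the CPM scale these are 237, 222 and 202 in MV+ and 3.99, 4.64 and 3.69 in RAG. The difference of 5.76 ± 0.10 on the log2 scale (edgeR adjusted p = 1.90e-16) ranked 810 from the top among genes higher in MV+. Per exon length Ctgf moved from rank 2 of the 10 genes in MV+, at 97.6 ± 5.07 FPKM, to the lowest in RAG, at percentile 39.9 of the genes with a count there against 96.3 in MV+.

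Cyr61 (also Ccn1; chromosome 3, 145309935 to 145312949, minus strand, 5 exons) is a close relative of Ctgf and an early gene of the serum response. Its levels were 278, 436 and 439.8 CPM in MV+ and 10.4, 16.8 and 20.4 CPM in RAG. The lines were far apart, yet the replicates within each line also differed. The log2 difference was 4.59 ± 0.37 (95% interval from 3.59 to 5.58, adjusted p = 0.000257), with the widest interval of the 10 genes.

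Cyr61 was the most variable of the 10 genes in both lines. Its coefficient of variation was 24.1% in MV+ and 31.9% in RAG, against a median of 6.87% and 6.49% over genes with at least 1 CPM, which placed it at percentiles 96.1 and 98.9. Replicate 1 was the lowest library in both lines, 0.44 below the line mean on the log2 scale in MV+ and 0.55 below it in RAG. Within the same-numbered pairs the fold between lines was 26.7, 25.9 and 21.5, and with the replicate number as a block in edgeR the SE of the log2 fold change was 0.07 (adjusted p = 2.85e-16). Ctgf did not share this pattern, with replicate 1 at 0.11 above the line mean in MV+ and 0.04 below it in RAG.

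**Figure D3:**
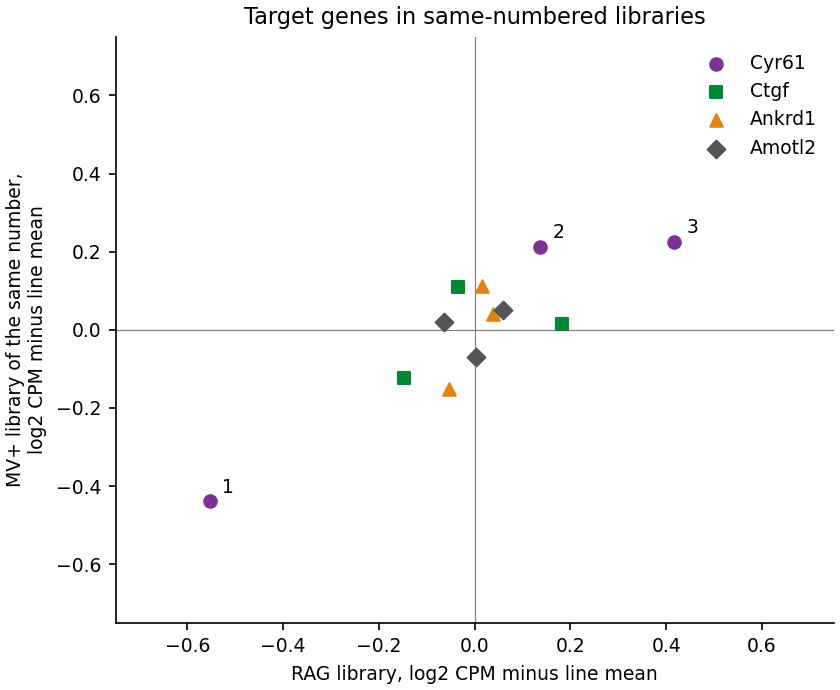
For each target, the log2 CPM of each library minus the mean of its line, with the RAG library on the horizontal axis and the MV+ library of the same replicate number on the vertical axis. Cyr61, with its replicate numbers beside the points, spans from -0.55 to 0.42 in RAG and from -0.44 to 0.23 in MV+, while the points of Ctgf, Ankrd1 and Amotl2 lie within 0.2 of 0.

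Ankrd1, an ankyrin repeat protein of muscle sarcomeres and nuclei that is a standard YAP target in many cell types, was abundant in both lines and went the other way. Its 9 exons lie between positions 36186455 and 36194334 of chromosome 19, minus strand. Its levels were 136, 129 and 113 CPM in MV+ and 403, 409.7 and 385 CPM in RAG. All RAG libraries were above all MV+ libraries, and the log2 difference was -1.67 ± 0.08 (edgeR adjusted p = 1.26e-11). At 212 ± 6.38 FPKM it was by far the highest of the 10 genes in RAG and stood at percentile 98.7 of all genes with a count there.

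Amotl2 encodes an angiomotin-family scaffold that holds YAP in the cytoplasm and is itself a YAP target. Its 10 exons lie between positions 102620134 and 102635747 of chromosome 9, plus strand. It was at 272, 266 and 250.2 CPM in MV+ and at 149, 137 and 143 CPM in RAG. The lines did not overlap, and the difference of 0.88 ± 0.07 on the log2 scale (edgeR adjusted p = 6.47e-09) was similar in size to those of Yap1 and Tead2.

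**Figure D4:**
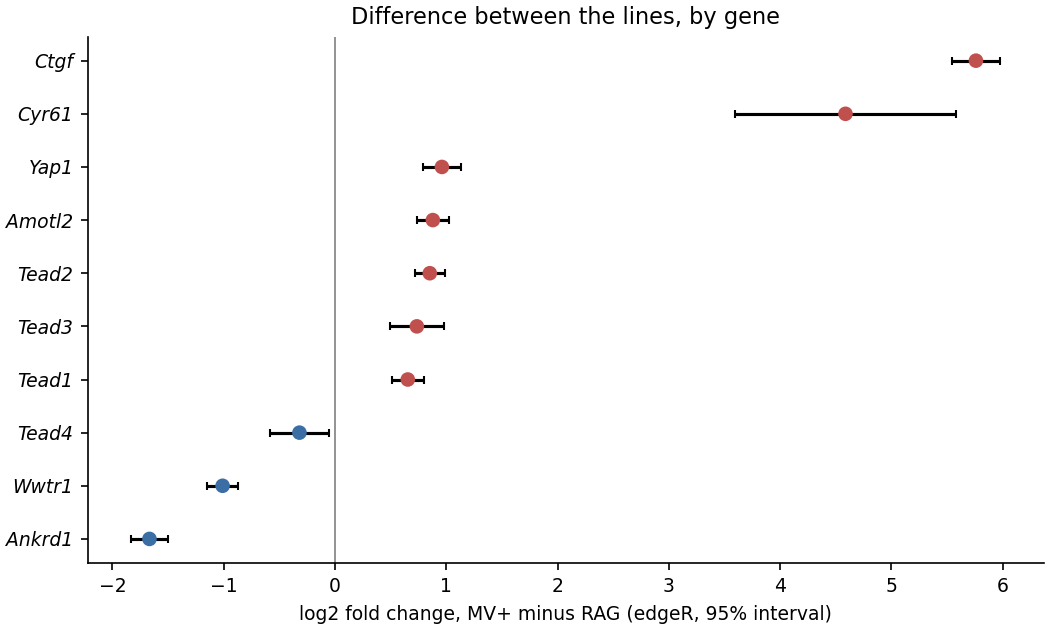
Log2 fold change of each gene, MV+ minus RAG (points), with its 95% interval from the edgeR fit (bars). Ctgf at 5.76 and Cyr61 at 4.59 stand apart on the right, 5 genes lie between 0.65 and 0.96, and Tead4, Wwtr1 and Ankrd1 lie on the left at -0.32, -1.01 and -1.67.

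Ranked per exon length, the order of the 10 genes differed between the lines. In MV+ the order was Cyr61 (203 ± 53.4 FPKM), Ctgf, Ankrd1 (75.8 ± 4.99), Amotl2 (66.8 ± 1.24), Tead2 (62.1 ± 1.56), Wwtr1 (23.8 ± 0.84), Yap1 (17.8 ± 1.08), Tead1 (16.3 ± 0.58), Tead3 (6.68 ± 0.90) and Tead4 (3.48 ± 0.64; SD, n = 3). In RAG it was Ankrd1, Wwtr1 (42.2 ± 3.02), Amotl2 (30.1 to 34.1 over its libraries), Tead2 (30.4 ± 2.86), Tead1 (9.13 ± 0.46), Yap1 (8.05 ± 0.69), Cyr61 (7.43 ± 2.72), Tead4 (3.83 ± 0.24), Tead3 (3.53 ± 0.23) and Ctgf. Among neighbours, the ranges of Yap1 and Tead1 in MV+ overlapped, as did those of Amotl2 and Tead2, of Yap1 and Cyr61, and of Tead4 and Tead3 in RAG. Within each library Yap1 was nevertheless above Tead1 in MV+, and Amotl2 above Tead2 and Tead4 above Tead3 in RAG, whereas Yap1 and Cyr61 changed order between RAG libraries.

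The genes around this module were taken from 4 lists of 47 different genes. Lats2 was counted both as a core gene and as a further target, and Ptpn14 both as a regulator and as a further target. The core kinase module of the Hippo pathway was expressed at similar levels in both lines. Among its 7 genes, all tested, 0 passed as higher and 3 as lower in MV+, against 40.4% and 38.9% of all genes, with a median log2 fold change of -0.10, and none differed by more than the 0.66 that is the median absolute log2 fold change over all genes. Mob1b, an activator of LATS kinases, reached 90.9 ± 3.18 CPM in MV+ and 124 ± 13.9 CPM in RAG (SD, n = 3), and differed by -0.44 ± 0.08 on the log2 scale (edgeR adjusted p = 0.000107). Sav1, at -0.35 ± 0.13, and Stk4, the gene of MST1, at -0.16 ± 0.07 were also called (adjusted p = 0.0366 and 0.0354), but each call was lost in several other fits, and Stk4 was at 0.022 by limma on FPKM. Stk3, the gene of MST2, at -0.09 ± 0.07, Mob1a at -0.03 ± 0.09 and Lats2 at -0.10 ± 0.09 were not called and were above 0 by limma on FPKM. Lats1, at 0.08 ± 0.08, was not called but was called by limma on FPKM, at 0.25 to 0.26. The 3 lower genes became 1 with upper quartile scaling and without RAG replicate 1 or RAG replicate 2, and 0 or 1 by limma on FPKM.

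Upstream regulators and adaptors differed more. Among 20 genes, of which 19 were tested, 12 passed as higher and 5 as lower in MV+ (6 lower with the replicate block, which adds Stk38), with a median log2 fold change of 0.57. Over all genes tested 79.3% were called, 40.4% as higher and 38.9% as lower. Fat4 is an atypical cadherin that patterns tissues in mice, and its fly relative acts upstream of the pathway. Fat4 had 403, 414 and 430 counts in MV+ and 0, 1 and 0 in RAG, which is a 1951-fold ratio (95% counting interval 350 to 77134). Amot, the X-linked angiomotin, had 1136, 1381 and 1540 counts in MV+ and 4, 3 and 1 in RAG, with a fitted log2 difference of 9.55 ± 0.18 (edgeR adjusted p = 3.73e-16). Wtip, a LIM protein of the Ajuba group that inhibits LATS, reached 18.2 ± 0.20 CPM in MV+, at least 602-fold above RAG, where it had no count. Amotl1, the third angiomotin gene, was higher in MV+ by 0.85 ± 0.07, so that all 3 were higher there. Nf2 (merlin), a tumor suppressor that activates the kinases, was named after its values were seen: its level was 117 ± 2.91 CPM in MV+ and 333 ± 10.6 CPM in RAG, with the lowest log2 fold change of this list at -1.51 ± 0.06 (adjusted p = 5.16e-12). Dchs1, a partner of FAT4, had 31 counts over the MV+ libraries and 2 over the RAG libraries and was not tested.

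The VGLL cofactors compete with or accompany YAP on TEAD factors. Vgll3 had 810, 887 and 956 counts in the MV+ libraries and 0 in each RAG library, so its level of 42.1 ± 3.08 CPM stood at least 1384-fold above that of RAG. Vgll4, which opposes YAP at TEADs, stood at 24.6 ± 1.19 CPM in MV+ and 5.87 ± 1.03 CPM in RAG (2.05 ± 0.12 on the log2 scale, edgeR adjusted p = 2.43e-10). Vgll1 had no count in any library and Vgll2 had 2 counts in all, so both were not tested. The median of the 2 tested genes was 7.61, or 6.24 with Vgll3 at its bound.

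Further targets were called at an adjusted p under 0.05 at shares near those of all genes. Of 18 genes that are commonly used as YAP and TEAD targets, 17 of them tested, 8 passed as higher and 6 as lower in MV+ (9 higher with the replicate block, which adds F3), with a median log2 fold change of 0.18. These counts stand against 40.4% higher and 38.9% lower over all genes tested. Past a 2-fold difference 6 of the 17 were higher, a larger share than the 18.7% of all genes. In the other direction 2 of the 17 were lower, against 16.4% of all genes. Arhgef17, a guanine nucleotide exchange factor, was at 133 ± 24.2 CPM in MV+ with 15 counts over the RAG libraries (log2 fold change 9.74 ± 0.23, edgeR adjusted p = 1.53e-11). Rbms3, an RNA-binding protein, and Fjx1, a Golgi kinase related to the fly gene four-jointed, had 1448 and 599 counts over the MV+ libraries and 2 each in RAG, ratios of 1133 (95% counting interval 313 to 9364) and 469 (129 to 3879). Foxf2, a forkhead factor of mesenchyme, had 135 counts over the MV+ libraries and 0 over the RAG libraries, at least 70.4-fold higher, and Nt5e, an ecto-nucleotidase, was higher by 3.77 ± 0.32. In the other direction, Ccdc80, a secreted matrix protein, had 6764, 6019 and 8858 counts in RAG and 1, 0 and 1 in MV+, a ratio of 6915 (1914 to 57102). Gadd45a, a stress-response gene, stood at 7.37 ± 0.29 CPM in MV+ and 38.5 ± 1.14 CPM in RAG (log2 difference -2.38 ± 0.09, adjusted p = 8.40e-13). A short stretch of its exons, 238 bases, is shared with a gene on the other strand, and without strand the reads there cannot be told apart. The abundant receptor tyrosine kinase Axl differed little, at 1174 ± 42.5 and 1579 ± 52.0 CPM (-0.43 ± 0.06, adjusted p = 1.65e-05), and was named after its values were seen.

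**Figure D5:**
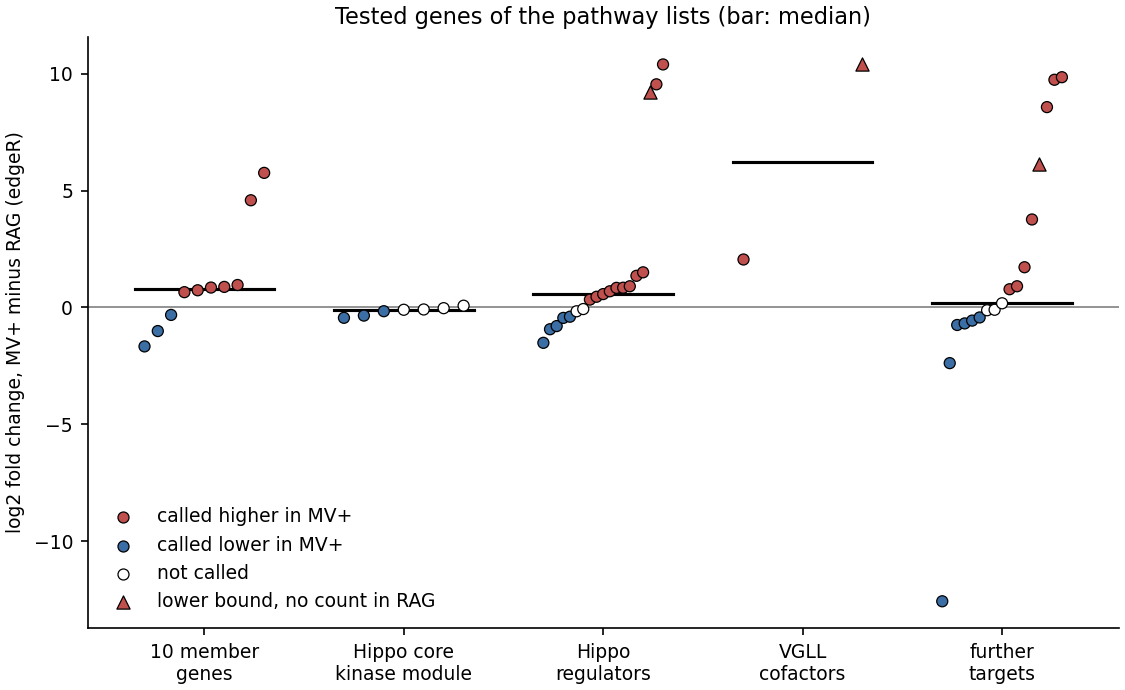
Log2 fold change, MV+ minus RAG, of each tested gene of the 10 and of the 4 lists (points, coloured by call), with the median of each list (bar). Triangles are Wtip, Vgll3 and Foxf2, which had no count in RAG and are drawn at their lower bounds. The core kinase genes lie within 0.45 of 0, and the regulators and further targets spread in both directions.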

How the data were processed

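Ribosome-depleted total RNA from 3 flasks each of MV+ and RAG cells was sequenced as single reads of 50 nt. The authors mapped reads against mm9 with TopHat version 2, used SAMtools 1.6, and deposited raw counts per RefSeq gene from featureCounts 1.5.0-p3 (Subread 1.5) at default settings, by which strand is not used and reads with several positions are left out. The deposited FPKM values are those counts divided by exon length and by the total of counts assigned to genes. Recomputed FPKM differed by at most 2.73e-15 (relative).

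Counts were tested in edgeR 4.0.16 (R 4.3.3) by the quasi-likelihood test, robust, after filterByExpr and TMM scaling, with adjustment over all 12965 genes tested. Log2 fold changes are MV+ minus RAG, and the SE is the log2 fold change over the square root of F. Shares and ratios used FPKM and two-sided exact permutation tests. The summed TMM-scaled levels were chosen after the data were seen. Bounds set a line without counts to 3 counts summed over its libraries, and bounds and counting intervals (95%, exact) cover counting error only. Alternatives used DESeq2 1.42.0, limma 3.58.1 on log2(FPKM + 1) or log2(FPKM + 0.1), other scaling and filters, a replicate block and leaving out each library.

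Libraries of the same number deviated together, with correlations of 0.43, 0.32 and 0.25 across genes for the 3 pairs and between -0.25 and -0.05 for all others, so the numbers were taken to pair the libraries, though the labels do not say what they share. The 10 genes and the lists were chosen with earlier results of these data known, and the lists were written from general knowledge. All 10 genes, all core and cofactor genes tested, and the other list genes that differed by more than 2 on the log2 scale were to be named. The p-values measure the spread between flasks of 1 line each.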

Additional observations from a re-analysis of the deposited data

How the results depend on the processing

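Of the 10 genes, 9 kept their direction and call in all 14 alternative fits. The exception was Tead4, not called by DESeq2 (-0.32), with upper quartile factors (-0.24) or by limma on FPKM (-0.12 with a pseudocount of 1 with or without a filter, and -0.15 with 0.1), and between -0.41 and -0.18 when single libraries were left out. So 2 rather than 3 genes were lower in those fits. Limma on FPKM, which has no TMM scaling, moved the log2 fold change of all genes upward by a median of 0.17 to 0.18, and 60.6 to 61.0% of called genes were then higher in MV+ against 50.9%. Under it (with a pseudocount of 1 with or without a filter, then with 0.1) small negative values turned positive: Stk3 at 0.088 and 0.096, Stk4 at 0.022 and 0.023, Lats2 at 0.074 and 0.077, Mob1a at 0.15 in each, Taok2 at 0.11 in each, Stk38 at 0.019 and 0.020, and Nuak2 at 0.057 and 0.062. Upper quartile factors turned Mob1a to 0.051 and Taok2 to 0.013. Without single libraries Lats2 lay between -0.16 and 0.0093 and Mob1a between -0.11 and 0.049. The count of core kinase genes lower in MV+ was 1 with upper quartile factors, 1 by limma on FPKM with a filter at either pseudocount and 0 without one, and between 1 and 3 without single libraries, and the count higher was 1 by limma on FPKM at each setting. The causes were not tested. The Tead3 share, MV+ minus RAG, was 0.20 percentage points on counts not divided by exon length and between -0.56 and 0.35 without single libraries, against -0.0064, and the Tead4 share -3.34 on such counts against -4.25. With the replicate block 10766 genes were called against 10285. Among the 10 genes and those of the 4 lists, the block changed no call other than those of Stk38 (-0.16) and F3 (0.18), which were then called. Both were also called in some other settings, F3 with upper quartile factors (adjusted p = 0.0474), by limma on FPKM and without RAG replicate 2, and Stk38 without the filter (adjusted p = 0.0243), without MV+ replicate 3 and without RAG replicate 1.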
